A study of Mus musculus with 12 samples.

Results

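The Wnt ligands, their Frizzled receptors, co-receptors and secreted antagonists were followed through neurons, glia, mesenchyme and hair cells of the embryonic and early postnatal mouse cochlea. The members were the 51 genes, of 24489 in the count table, whose symbols name a Wnt (19 genes), a Frizzled (10), the co-receptors Lrp5, Lrp6, Ror1, Ror2 and Ryk (5), the antagonists of the Sfrp, Frzb, Wif1 and Dkk group (10), an Lgr receptor (3) or an R-spondin (4), and all 51 were found. Single tdTomato+ cells were sorted from dissected spiral ganglia (at E14.5 and E15.5 the modiolus) and sequenced by Smart-seq2 on 12 plates, with 1 plate at E17.5, 3 at E16.5 and 2 at each of the other stages, which were E14.5, E15.5, E18.5 and postnatal day P3. Every plate was labelled PVcre;Ai14, a parvalbumin-driven Cre with a tdTomato reporter, except E14.5 plate 2, labelled TrkCcre (TrkC is the product of Ntrk3). The study's design text gives all E14.5 cells to a Ntrk3Cre line, so the driver on E14.5 plate 1 is in doubt, and the part of the Cre line in comparisons with E14.5 was not tested. There was no treatment, so stage and cell class were the contrasts, and each plate held cells pooled from several animals. The sort selected for the reporter, and the study regards its mesenchyme as a likely contaminant of that sort. Whether the glia and mesenchyme here carried the reporter was not tested, and cell numbers are no measure of abundance.

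After filtering, 4226 cells were kept, between 125 and 382 a plate. Clusters were named from marker genes as neuron-like (2180 cells), glia-like (1228), mesenchyme-like (574) and hair cell-like (74), called neurons, glia, mesenchyme and hair cells here, and 170 cells stayed unnamed. Counts of all cells of a class on a plate were summed, and a level is given in CPM, the usual scaling of a gene's count to the total of its sum, with 1 value a plate. Total counts a plate ran from 80997594 to 303906928. Neurons were present on all 12 plates. Glia and mesenchyme were well represented on 6 plates of one plate series (E14.5 plates 1 and 2, E15.5 plates 1 and 2, E16.5 plate 3 and E17.5), which hold all comparisons between these classes. On the other plates with embryonic tissue the few glial and mesenchymal cells carried neuronal markers, with a summed level of up to 9285 CPM in glia and 9536 CPM in mesenchyme of E16.5 plates 1 and 2, against 13275 to 16861 CPM in neurons, so these sums were not used for the class comparisons. On the 6 plates the same markers summed to 538 to 785 CPM in glia and 181 to 286 CPM in mesenchyme. There the 14 mesenchymal markers, which include collagens, summed to 13135 to 37544 CPM in mesenchyme and 1809 to 5723 CPM in glia, highest at E17.5, and the 12 glial markers to 6594 to 10783 CPM in glia and 85.7 to 365 CPM in mesenchyme. The part of such counts in the results was not tested. Hair cells came from the 2 E18.5 plates (37 and 32 cells), with 5 more at E17.5.

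Wnts are secreted lipid-modified ligands that bind Frizzled receptors together with Lrp5 or Lrp6 to stabilise beta-catenin, or with Ror and Ryk receptors to act on cell polarity and movement without it. Sfrp proteins, Frzb and Wif1 bind the ligands outside the cell, Dkk proteins bind Lrp5 and Lrp6, and R-spondins bound to Lgr receptors keep Frizzleds on the cell surface. In the inner ear the pathway is known for patterning the otic vesicle, for the polarity of hair cell bundles and for the growth of auditory neurites.

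Of the 51 members, 36 reached a mean of 5 CPM in at least 1 class and are described: 9 of 19 ligands, all 10 Frizzleds, all 5 co-receptors, 7 of 10 antagonists, all 3 Lgr receptors and 2 of 4 R-spondins. These means are over all plates, so a gene can pass through a mixed sum (Wnt2b and Wnt6 in hair cells passed through the 5 cells at E17.5). Over the sums that enter the comparisons, the 6 plates and for hair cells the 2 E18.5 plates, neurons held 13 members at 5 CPM, glia 22, hair cells 25 and mesenchyme 32. Among the ligands there were 2 in neurons (Wnt3 and Wnt5a), 1 in glia (Wnt5a), 3 in hair cells and 6 in mesenchyme. The other 15 members had highest class means between 0.0570 CPM (Wnt8a) and 4.67 CPM (Dkk1). On the 6 plates alone Dkk1 and Wnt2 also passed 5 CPM in mesenchyme, with means of 7.01 and 6.85 CPM, and neither passed the threshold in a comparison of these classes. Per kilobase of exon, which allows genes to be compared, the means over these same sums were led in neurons by Sfrp1 (40.3 CPM per kb), Wnt3 (17.3 CPM per kb) and Fzd1 (14.4 CPM per kb). Glia were led by Sfrp1 (57.5 CPM per kb), Fzd1 (36.2 CPM per kb) and Sfrp5 (23.7 CPM per kb). Mesenchyme was led by Sfrp2 (164 CPM per kb) and Fzd9 (53.7 CPM per kb), and hair cells by Sfrp1 (135 CPM per kb) and Dkk3 (98.6 CPM per kb).

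**Figure D1:**
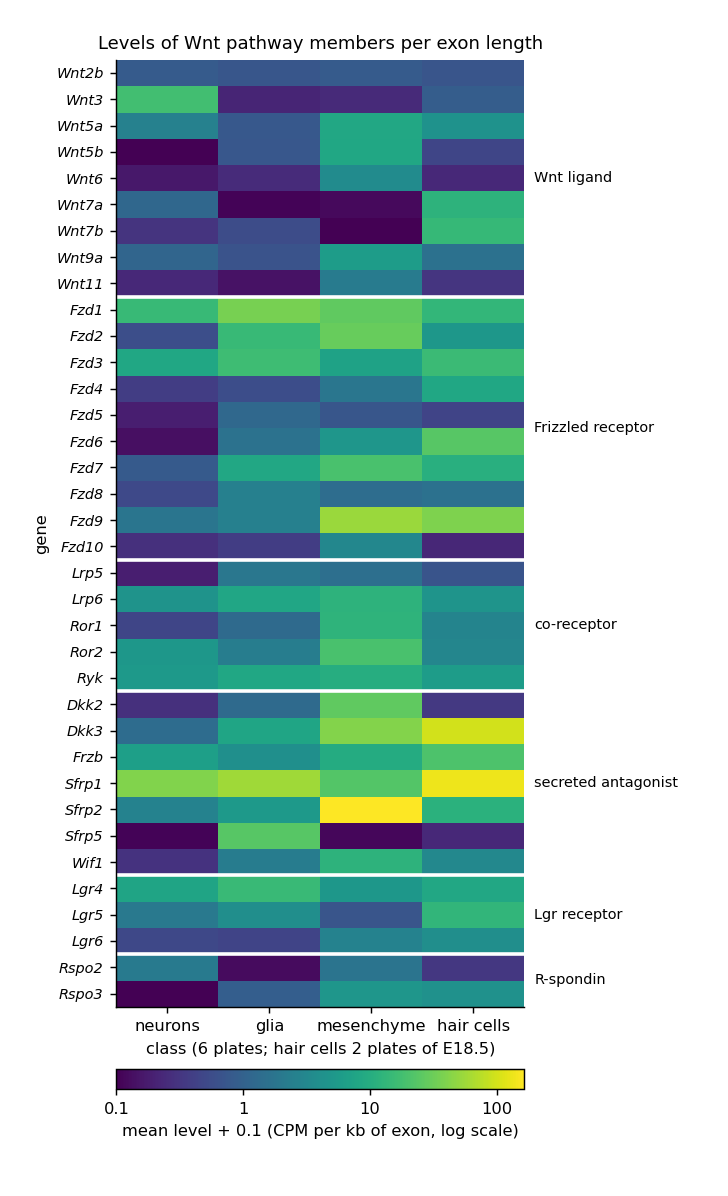
Mean level of the 36 described members in each class, as CPM per kilobase of exon on a log colour scale, with genes ordered by role. Means are over the 6 plates with all 3 classes for neurons, glia and mesenchyme and over the 2 E18.5 plates for hair cells. Wnt3 is high in the neuron column only and Sfrp5 in the glial one. Sfrp2, Dkk2 and Fzd9 are higher in mesenchyme than in neurons and glia.

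Of the members that differed from neurons, most were higher in glia or mesenchyme. In edgeR's quasi-likelihood test on the 6 plates, with the plate as a block and p adjusted over all 16097 genes tested, 25 of 42 tested members differed between glia and neurons, 20 higher and 5 lower in glia, where 52.8% of all genes tested differed (28% higher and 24.8% lower). Between mesenchyme and neurons 31 of 42 differed, 27 higher and 4 lower in mesenchyme (53.6% of all genes, 27.7% higher and 25.9% lower), and between mesenchyme and glia 19 of 42, 14 higher and 5 lower in mesenchyme (23.9% of all genes, 12% higher and 11.9% lower). The median log2 fold change of the members was 1.14 in glia against neurons, 2.84 in mesenchyme against neurons and 1.51 in mesenchyme against glia, beside 0.08, 0.00 and -0.07 over all genes. Both comparisons with neurons share the neuron sums. In them 17 members were higher in glia and in mesenchyme, 2 were lower in both (Wnt3 and Wnt7a), and Ror2, Wnt5a and Lgr4 went in opposite directions. The shares of all genes in these groups were not taken, so the counts are not read as a result about the members.

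Among the ligands, Wnt3, which can signal through beta-catenin, was the ligand with the highest mean level per kilobase in neurons. Its lowest, median and highest levels over the 6 plates were 27.4, 50.9 and 83.3 CPM in neurons, 0, 0.135 and 1.53 CPM in glia, and 0, 0.126 and 1.65 CPM in mesenchyme. Every neuronal sum lay above every glial and mesenchymal one. The log2 fold change was -7.85 ± 1.12 (SE) in glia against neurons (adjusted p = 5.75e-05) and -7.06 ± 1.10 in mesenchyme against neurons (adjusted p = 0.000122). Wnt7a had the same order at a lower level, with 1.72, 2.56 and 8.79 CPM in neurons and at most 0.0777 CPM in glia and 0.366 CPM in mesenchyme. On at least 1 plate all neuronal Wnt7a counts came from 1 cell. Its log2 fold changes were -7.43 ± 1.40 in glia (adjusted p = 0.000587) and -7.10 ± 1.44 in mesenchyme (adjusted p = 0.000986).

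Wnt5a, the ligand best known for signalling through Ror2 without beta-catenin, was highest in mesenchyme. The lowest, median and highest sums were 45.6, 62.9 and 95.3 CPM in mesenchyme, 3.78, 22.6 and 33.6 CPM in neurons and 2.32, 4.78 and 10.2 CPM in glia. Mesenchyme did not overlap the other classes, whereas the E14.5 neurons lay within the glial range. Its log2 fold change was 1.90 ± 0.47 in mesenchyme against neurons (adjusted p = 0.00382), 3.70 ± 0.50 in mesenchyme against glia (adjusted p = 0.000156) and -1.80 ± 0.49 in glia against neurons (adjusted p = 0.00719). The close relative Wnt5b was at 0 in neurons on all 6 plates, at 1.05 to 3.32 CPM in glia and at 13.8 to 29.6 CPM in mesenchyme, with no overlap. Against a floor of 3 counts over the neuron sums it was at least 754-fold higher in mesenchyme and at least 59.9-fold higher in glia (adjusted p = 5e-06 and 3.67e-05). In glia its counts came from 22 of 1169 cells, with up to 83.3% of a plate's counts in 1 cell.

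The remaining ligands were low. Wnt6 reached 18.6 CPM in mesenchyme and no more than 0.832 CPM in neurons (log2 fold change 7.89 ± 2.05, adjusted p = 0.00546). Wnt9a was higher in mesenchyme than in neurons and glia (log2 fold changes 2.45 ± 0.64 and 3.38 ± 0.70), although its mesenchymal range of 2.11 to 43.8 CPM overlapped both. Wnt11 was higher in mesenchyme than in neurons by 5.15 ± 1.83 on the log2 scale (adjusted p = 0.0301), and this was lost without E15.5 plate 1 (adjusted p = 0.0826), E15.5 plate 2 (0.0623) or E16.5 plate 3 (0.0604). Wnt7b was at 0 in mesenchyme on all 6 plates, at least 106-fold lower than in glia, where it reached 3.94 CPM, and at least 46.9-fold lower than in neurons. The neuronal call was lost without E14.5 plate 1 (adjusted p = 0.0546) or E16.5 plate 3 (0.0709). Counts of Wnt7b came from 20 of 1169 glial and 6 of 438 neuronal cells. Wnt16, under 5 CPM in every class mean, was higher in glia and in mesenchyme than in neurons (log2 fold changes 6.37 ± 1.35 and 6.44 ± 1.38). Wnt2b differed in none of the 3 comparisons, with medians of 1.29 to 2.28 CPM.

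**Figure D2:**
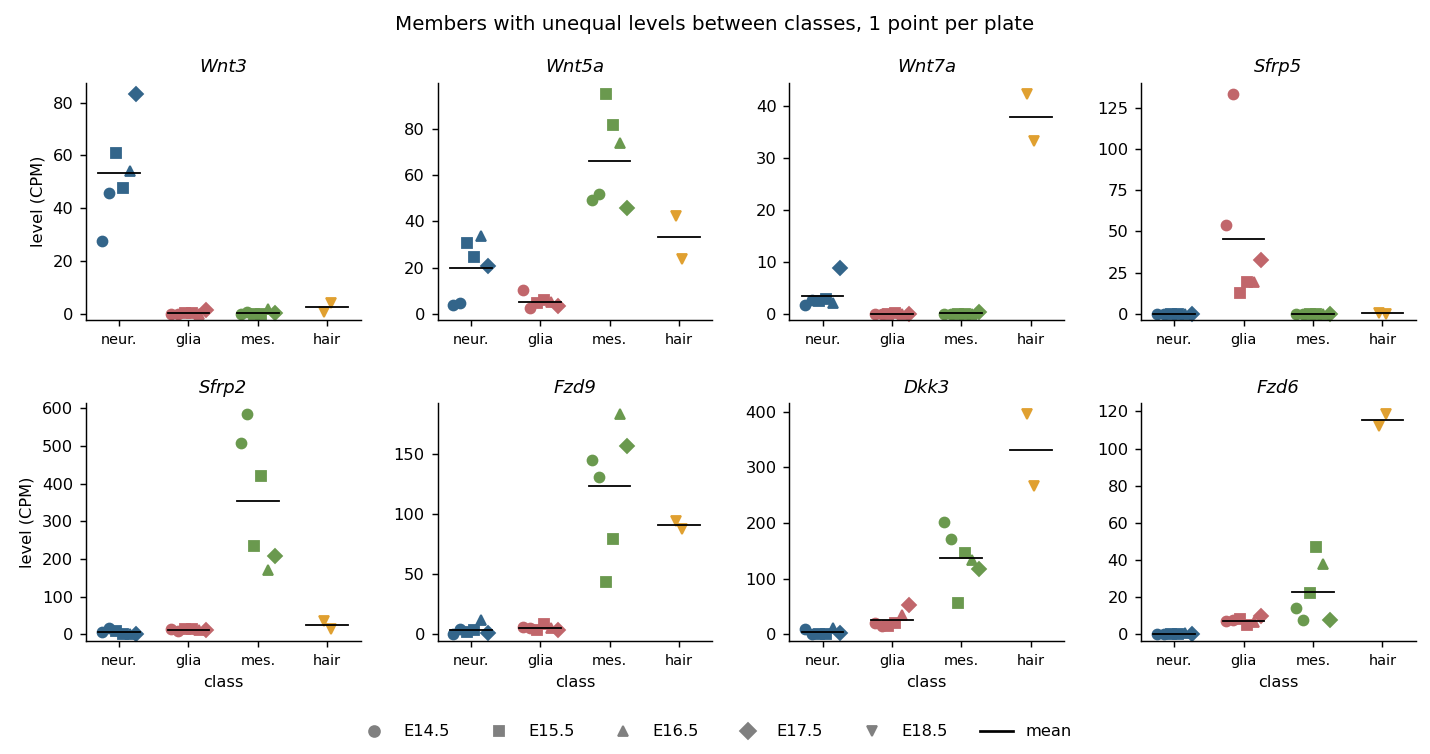
Level in CPM of Wnt3, Wnt5a, Wnt7a, Sfrp5, Sfrp2, Fzd9, Dkk3 and Fzd6 in neurons, glia and mesenchyme of the 6 plates and in hair cells of the 2 E18.5 plates, with 1 point a plate and a line at the mean. Neurons stand above the other classes for Wnt3, glia for Sfrp5 and mesenchyme for Sfrp2, where the lowest mesenchymal sum is 170 CPM and the highest of the other 2 classes on these plates is 16.8 CPM.

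The Frizzleds, the membrane receptors that bind the ligands, were mostly lower in neurons. Of 10 tested, 7 were higher in glia and 9 in mesenchyme than in neurons, and none was lower. Of all genes tested, 28% were higher and 24.8% lower in glia, and 27.7% higher and 25.9% lower in mesenchyme. Fzd2 was at 0 to 4.73 CPM in neurons, 29.6 to 63.6 CPM in glia and 38.9 to 142.7 CPM in mesenchyme, and the neuronal range did not overlap the others. Its log2 fold changes were 5.13 ± 0.63 in glia (adjusted p = 1.5e-05) and 6.10 ± 0.65 in mesenchyme (adjusted p = 4.88e-06). Fzd7 followed the same order without overlap of any class, at 0.681 to 4.99 CPM in neurons, 24.0 to 48.3 CPM in glia and 61.6 to 132 CPM in mesenchyme. Fzd7 was 3.54 ± 0.42 higher on the log2 scale in glia and 4.82 ± 0.44 higher in mesenchyme than in neurons. The difference between mesenchyme and glia, 1.27 ± 0.38 (adjusted p = 0.0259), was lost without E14.5 plate 1 (0.0930) or E15.5 plate 1 (0.0691).

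Fzd9, like Fzd7, was higher in mesenchyme than in both other classes. It stood at 43.3, 138 and 183 CPM (lowest, median and highest) in mesenchyme, at 3.21, 5.44 and 8.97 CPM in glia and at 0.115, 2.87 and 12.3 CPM in neurons, with no overlap of mesenchyme and the rest. The log2 fold change was 5.32 ± 0.68 against neurons (adjusted p = 2.25e-05) and 4.45 ± 0.63 against glia (adjusted p = 0.000226). Fzd6, at 0 to 0.713 CPM in neurons, reached 9.70 CPM in glia and 46.9 CPM in mesenchyme (log2 fold changes 5.89 ± 0.94 and 7.23 ± 0.98 against neurons). Fzd10 was higher in mesenchyme than in neurons (6.66 ± 1.43, adjusted p = 0.00153). Fzd10 was also higher than in glia by 3.56 ± 1.18 (adjusted p = 0.0439), a call lost without E14.5 plate 1 (0.115), E15.5 plate 1 (0.101), E16.5 plate 3 (0.0591) or the E17.5 plate (0.122).

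Fzd3, a Frizzled of the planar polarity branch that is needed for axon guidance, was the exception, since its level in neurons was close to that in mesenchyme. It was at 87.4, 109 and 117 CPM in neurons, 76.7, 86.3 and 114 CPM in mesenchyme and 175, 209 and 262 CPM in glia. Glia lay above both, by 0.96 ± 0.12 on the log2 scale against neurons (adjusted p = 1.41e-05), and mesenchyme lay 1.19 ± 0.12 below glia (log2 fold change -1.19, adjusted p = 1.21e-05). Mesenchyme and neurons overlapped, with a log2 fold change of -0.24 ± 0.12 that missed the threshold (adjusted p = 0.0990). Fzd1 was also frequent in all 3 classes, with 23.8 to 106 CPM in neurons, 88.2 to 232 CPM in glia and 78.3 to 136 CPM in mesenchyme. The neuronal range overlapped both others, and the log2 fold changes were 1.36 ± 0.31 in glia (adjusted p = 0.00242) and 1.08 ± 0.32 in mesenchyme (adjusted p = 0.0116). The mesenchymal call was lost without E14.5 plate 1 (adjusted p = 0.0607) or E14.5 plate 2 (0.0515).

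Fzd5 and Fzd8 were higher in glia than in neurons (log2 fold changes 3.85 ± 0.91 and 2.79 ± 0.58), with glial ranges of 2.97 to 17.48 CPM and 11.4 to 20.2 CPM above neuronal ones that ended at 1.27 CPM and 4.57 CPM. Both were also higher in mesenchyme than in neurons (2.90 ± 0.86 and 1.67 ± 0.54), the latter not without E14.5 plate 2 (adjusted p = 0.0668) or the E17.5 plate (0.0592). Fzd4 was higher in mesenchyme than in neurons by 2.79 ± 0.89 (adjusted p = 0.0178), which was lost without E14.5 plate 2 (0.0644) or E15.5 plate 1 (0.0548).

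The co-receptors were higher in glia and mesenchyme than in neurons, apart from Ror2 in glia. Lrp6, the main partner of Frizzleds in beta-catenin signalling, was at 41.9, 60.4 and 75.2 CPM in neurons, 89.8, 109 and 116 CPM in glia and 140, 165 and 180 CPM in mesenchyme. The 3 ranges did not overlap, and each pair differed, by 0.78 ± 0.12, 1.40 ± 0.12 and 0.62 ± 0.12 on the log2 scale (glia against neurons, mesenchyme against neurons, mesenchyme against glia; adjusted p = 8.22e-05, 5.91e-07 and 0.00167). Its relative Lrp5 was at 0 to 1.83 CPM in neurons, 13 to 25.02 CPM in glia and 2.50 to 19.4 CPM in mesenchyme (log2 fold changes 4.38 ± 0.91 and 4.03 ± 0.93 against neurons). Ror1 reached 61.0 to 87.3 CPM in mesenchyme, above every glial sum (at most 9.41 CPM) and every neuronal sum (at most 7.89 CPM). Its log2 fold changes were 5.76 ± 0.87 against neurons and 3.35 ± 0.74 against glia. The smaller difference of Ror1 between glia and neurons, 2.41 ± 0.81 (adjusted p = 0.0230), was lost without E15.5 plate 2 (0.0668), E16.5 plate 3 (0.0742) or the E17.5 plate (0.0757). Ryk differed least, at 20.2 to 29.9 CPM in neurons, 30.9 to 49.5 CPM in glia and 35.1 to 56.7 CPM in mesenchyme. Its log2 fold changes against neurons were 0.55 ± 0.18 (adjusted p = 0.0195, and 0.0549 without E15.5 plate 2) and 0.83 ± 0.18 (adjusted p = 0.00157).

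Ror2, the receptor tyrosine kinase that binds Wnt5a, was highest in mesenchyme. It was at 29.0, 87.8 and 121 CPM in mesenchyme, 10.4, 15.8 and 51.3 CPM in neurons and 4.90, 9.29 and 14.0 CPM in glia. Mesenchyme and glia did not overlap (log2 fold change 3.17 ± 0.31, adjusted p = 1.11e-05), while neurons overlapped both. Mesenchyme exceeded neurons by 2.02 ± 0.30 (adjusted p = 7.77e-05). Glia lay below neurons (-1.16 ± 0.29, adjusted p = 0.00451), but without the E14.5 neurons of clusters led by Neurod1 this was -0.20 (adjusted p = 0.763).

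Among the secreted antagonists, Sfrp5 was particular to glia in these comparisons. It was at 54.1 and 133.3 CPM at E14.5, 12.5 and 19 CPM at E15.5, 19 CPM on E16.5 plate 3 and 32.5 CPM at E17.5 in glia, and at most 0.131 CPM in mesenchyme and 0.0973 CPM in neurons of the same plates. The E14.5 glia were highest, and no glial sum overlapped another class. The log2 fold change was 10.63 ± 0.93 against neurons (adjusted p = 7.97e-07), and mesenchyme lay 11.41 ± 1.00 below glia (-11.41, adjusted p = 5.39e-06). Sfrp2 was highest in mesenchyme, at 507 and 584 CPM at E14.5, 234 and 419 CPM at E15.5, 170 CPM on E16.5 plate 3 and 207 CPM at E17.5, and no other class of these plates exceeded 16.8 CPM. Its log2 fold change was 6.49 ± 0.85 against neurons (adjusted p = 2.91e-05) and 4.67 ± 0.76 against glia (adjusted p = 0.000618).

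Sfrp1 had the highest per-kilobase class mean in neurons, glia and hair cells. On the 6 plates its lowest, median and highest levels were 57.9, 179 and 264 CPM in neurons, 143.5, 250 and 385 CPM in glia and 8.34, 101 and 194 CPM in mesenchyme. All 3 ranges overlapped. The log2 fold change of 0.33 ± 0.49 in glia and of -1.22 ± 0.52 in mesenchyme against neurons missed the threshold (adjusted p = 0.598 and 0.0644). Mesenchyme was lower than glia by 1.56 ± 0.50 (-1.56, adjusted p = 0.0392), a call lost without E14.5 plate 2 (0.0537), E15.5 plate 1 (0.0692), E15.5 plate 2 (0.102) or E16.5 plate 3 (0.0904).

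Dkk2 and Dkk3 were higher in mesenchyme than in glia and neurons of these plates. Dkk2, which blocks Lrp6, was at 41.1, 92.1 and 189 CPM in mesenchyme, at most 10.7 CPM in glia and at most 2.72 CPM in neurons, without overlap of mesenchyme and the rest (log2 fold changes 7.51 ± 1.16 against neurons and 4.23 ± 1.01 against glia). Its higher level in glia against neurons, 3.28 ± 1.12 (adjusted p = 0.0250), was lost without E14.5 plate 1 (0.0922), E14.5 plate 2 (0.0650), E16.5 plate 3 (0.0543) or the E17.5 plate (0.0860). Dkk3, a member of the family whose action on the pathway is less settled, was at 56.2 to 202 CPM in mesenchyme, 14.4 to 52.2 CPM in glia and 0 to 11.9 CPM in neurons. None of these ranges overlapped, and its log2 fold changes were 5.62 ± 0.82 and 3.12 ± 0.76 against neurons. Dkk3 in mesenchyme exceeded glia by 2.50 ± 0.70 (adjusted p = 0.0194, and 0.0660 without E14.5 plate 2). Wif1 was at 13.0 to 41.9 CPM in mesenchyme, 0.3497 to 9.32 CPM in glia and up to 1.60 CPM in neurons (log2 fold changes 6.72 ± 1.15 and 4.11 ± 1.11 against neurons). Frzb, which binds Wnts like the Sfrp proteins, passed the threshold in none of the 3 comparisons, with medians of 18.2, 11.6 and 25.2 CPM in neurons, glia and mesenchyme.

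The Lgr receptors differed in where they were found. Lgr4 was at 79.7 to 114 CPM in glia, above all neuronal sums (26.5 to 73.9 CPM) and all mesenchymal sums (14.1 to 38.9 CPM). Its log2 fold change was 1.01 ± 0.24 in glia against neurons (adjusted p = 0.00287) and -1.63 ± 0.24 in mesenchyme against glia (adjusted p = 0.000309). Mesenchyme was lower than neurons by 0.62 ± 0.24 (-0.62, adjusted p = 0.0451). That last call was lost without E15.5 plate 1 (0.0770), E15.5 plate 2 (0.164), E16.5 plate 3 (0.1396) or the E17.5 plate (0.134). Lgr5, a marker of epithelial progenitors and supporting cells in the cochlea, had medians of 35.5 CPM in glia, 16.2 CPM in neurons and 3.13 CPM in mesenchyme, with wide ranges and adjusted p values of 0.356, 0.156 and 0.0648 in the 3 comparisons. Lgr6 was higher in mesenchyme than in neurons (4.33 ± 1.42, adjusted p = 0.0200), which was lost without E15.5 plate 2 (0.0548) or the E17.5 plate (0.0629).

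Among the R-spondins on the 6 plates, Rspo2 was found in neurons and mesenchyme, and Rspo3 and Rspo1 in glia and mesenchyme. Rspo2 was at 7.26, 10.4 and 12.3 CPM in neurons, at most 0.416 CPM in glia and between 0.0916 and 19.8 CPM in mesenchyme. Glia lay below every neuronal sum (log2 fold change -7.09 ± 1.21, adjusted p = 0.000268), mesenchyme overlapped neurons (-1.11 ± 1.03, adjusted p = 0.390), and mesenchyme exceeded glia by 5.98 ± 1.17 (adjusted p = 0.00227). Rspo3 was at 0 in neurons on all 6 plates, at 0.850 to 5.03 CPM in glia and at 2.56 to 29.2 CPM in mesenchyme. It was at least 88.7-fold higher in glia and at least 521-fold higher in mesenchyme than in neurons (adjusted p = 2.3e-05 and 6.82e-06), and higher in mesenchyme than in glia (2.39 ± 0.47, adjusted p = 0.00742). Counts of Rspo3 came from 37 of 1169 glial and 79 of 549 mesenchymal cells. Rspo1, under 5 CPM in every class mean, was at 0 in these neurons and at least 81.6-fold higher in glia and 97.7-fold higher in mesenchyme. Its counts came from 8 of 1169 glial and 13 of 549 mesenchymal cells, with 0 on at least 1 plate in each class. The glial call was lost without E14.5 plate 1 (adjusted p = 0.0528).

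Some of these calls also depended on which cells were summed. With the 25% of neurons of each plate that had the fewest glial counts, called the glia-poor neurons here, the differences between glia and neurons of Lgr4 (adjusted p = 0.0814), Wnt5a (0.0921), Ror2 (0.1385), Ror1 (0.154) and Ryk (0.189) missed the threshold, as did those of Fzd5 (0.0505) and Wnt7b (0.0618) between mesenchyme and neurons. With a finer clustering (Leiden resolution of 2) Dkk2 (0.412) and Ror1 (0.0634) were lost between glia and neurons, Wnt7b (0.0860) and Lgr4 (0.0505) between mesenchyme and neurons, and Wnt7b (0.0816), Fzd10 (0.0526) and Sfrp1 (0.0536) between mesenchyme and glia. With the genes of the study's glial code among the clustering features, Dkk2 (0.321) was lost between glia and neurons, Lgr4 (0.0506) between mesenchyme and neurons, and Rspo3 (0.0963), Fzd10 (0.107) and Sfrp1 (0.116) between mesenchyme and glia. Under the cell filter of the study's reporting summary, Wnt7b in mesenchyme was -1.75 against neurons (adjusted p = 0.558) and -6.01 against glia (adjusted p = 0.0942) on the log2 scale. Without the E14.5 neurons of clusters led by Neurod1, Fzd8 (0.0756) and Lgr4 (0.0747) were lost between mesenchyme and neurons.

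Promoter sequence is shown for 4 members, each with a large difference between classes above: Wnt3 (neurons), Sfrp5 (glia), and Dkk2 and Ror2 (mesenchyme). The windows end at the base before the annotated start, in RefSeq on GRCm38.p6, and lie at chr11:103773925-103774149 (+), chr19:42202253-42202502 (-), chr3:132085042-132085291 (+) and chr13:53286125-53286374 (-). Capitals mark matches, on either strand, to CTTTGA or CTTTGT, the core bound by TCF and LEF factors, or to the E-boxes CAGATG or CAGCTG.
Wnt3: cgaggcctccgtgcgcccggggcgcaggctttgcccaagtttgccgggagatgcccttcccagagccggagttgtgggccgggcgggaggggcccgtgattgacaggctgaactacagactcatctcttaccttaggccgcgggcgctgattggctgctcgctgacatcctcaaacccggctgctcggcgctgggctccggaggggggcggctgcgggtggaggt
Sfrp5: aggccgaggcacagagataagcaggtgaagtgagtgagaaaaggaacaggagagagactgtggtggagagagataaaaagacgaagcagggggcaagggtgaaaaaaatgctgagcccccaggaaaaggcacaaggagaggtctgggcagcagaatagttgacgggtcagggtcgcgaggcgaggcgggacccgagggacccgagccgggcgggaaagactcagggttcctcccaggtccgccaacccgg
Dkk2: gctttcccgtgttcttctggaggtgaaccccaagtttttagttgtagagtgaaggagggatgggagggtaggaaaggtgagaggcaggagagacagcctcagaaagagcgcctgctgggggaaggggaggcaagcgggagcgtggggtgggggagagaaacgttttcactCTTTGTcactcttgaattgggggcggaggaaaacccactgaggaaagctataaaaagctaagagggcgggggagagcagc
Ror2: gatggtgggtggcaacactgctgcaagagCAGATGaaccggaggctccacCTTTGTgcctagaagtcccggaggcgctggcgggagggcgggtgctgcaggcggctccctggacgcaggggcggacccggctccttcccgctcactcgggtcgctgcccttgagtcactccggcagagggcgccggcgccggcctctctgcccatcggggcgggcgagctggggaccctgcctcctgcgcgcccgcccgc
The gene models lie directly downstream, for Wnt3 at chr11:103774150-103817957 and for Dkk2 at chr3:132085292-132180304 on the plus strand, and for Sfrp5 at chr19:42197971-42202252 and for Ror2 at chr13:53109312-53286124 on the minus strand. No match was found in the Wnt3 and Sfrp5 windows. Dkk2 held 1 TCF/LEF core 80 bases from the window's end, and Ror2 held 1 such core and 1 E-box, 200 and 221 bases from the end. A window was found for 34 members, of which 10 (29.4%) held a TCF/LEF core and 7 (20.6%) an E-box, where 27.6% and 25.5% of all 32851 windows did. The windows held 20 CG pairs for Wnt3, 13 for Sfrp5, 7 for Dkk2 and 24 for Ror2.

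The wider pathway was followed with 4 further gene lists, whose counts stand beside 28% of all genes higher and 24.8% lower in glia, 27.7% and 25.9% in mesenchyme against neurons, and 12% and 11.9% in mesenchyme against glia. Of 12 tested feedback targets of beta-catenin, genes that the pathway itself switches on in many tissues, 10 were higher and none lower in glia than in neurons, and 12 of 12 were higher in mesenchyme. Between mesenchyme and glia 6 were higher and none lower in mesenchyme. Sp5 reached 28.8 CPM in mesenchyme and no more than 0.190 CPM in neurons on any of the 6 plates (log2 fold change 8.11 ± 1.03, adjusted p = 2.28e-05). Lef1, a transcription factor of the pathway, was at 341 to 686 CPM in mesenchyme of the 6 plates and 8.42 ± 1.14 higher than in neurons. Of 13 tested secretion and co-factor genes, 9 were higher and 1 lower in glia, and 10 higher and 1 lower in mesenchyme, than in neurons. This list shares Apcdd1, Notum, Rnf43 and Znrf3 with the feedback targets, so any call of these genes counts in both. Sostdc1, a secreted antagonist, was the largest such difference in glia (9.39 ± 1.16, adjusted p = 1.62e-05), with 256 to 822 CPM in glia of the 6 plates and at most 8.56 CPM in their neurons. The 23 intracellular genes were divided, with 8 higher and 8 lower in glia and 9 higher and 7 lower in mesenchyme. Of the 19 planar polarity genes, 8 were higher and 6 lower in glia, and 9 higher and 4 lower in mesenchyme, than in neurons. Among the lower ones was Celsr3, an atypical cadherin (-6.77 ± 0.60 in glia and -8.72 ± 0.68 in mesenchyme).

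Hair cells were compared with neurons of the same 2 E18.5 plates. Of 39 tested members 30 differed, 22 higher and 8 lower in hair cells, where 57.4% of the 16041 genes tested differed (28% higher and 29.3% lower). The median member lay 1.03 higher on the log2 scale, beside -0.05 over all genes. Leaving out a plate leaves no residual degrees of freedom, so no plate could be dropped in this comparison. The sorted hair cells also held otic epithelial markers, summed at 6710 to 10698 CPM on these plates and at no more than 21.5 CPM in neurons of any plate. The 14 mesenchymal markers summed to 1552 to 4796 CPM in them and 512 to 607 CPM in the E18.5 neurons, and a sub-cluster of 17 hair cells that stayed unnamed was led by Epyc, Lect1, Col3a1 and Col1a2. Dkk3 (5.35 on the log2 scale), Fzd9 (6.38), Sfrp2 (3.23), Wif1 (5.15) and Ror1 (3.50), all also high in mesenchyme, were called with the named sub-clusters alone. In these sub-clusters mesenchymal markers still summed to 449 to 3138 CPM at E18.5. The part of these cells' other markers in the results was not tested.

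Both Wnt7 ligands were higher in hair cells than in neurons. Wnt7b was at 75.3 and 61.9 CPM in hair cells and 2.75 and 1.73 CPM in neurons (log2 fold change 4.90 ± 0.29, adjusted p = 0.000183). Wnt7a was at 42.4 and 33.4 CPM in hair cells and 9.65 and 8.05 CPM in neurons (2.05 ± 0.20, adjusted p = 0.000900). Both were well above neurons on either plate. Wnt3 went the other way, at 0.681 and 4.11 CPM in hair cells and 74.5 and 75.0 CPM in neurons (-5.02 ± 0.57, adjusted p = 0.00144). Wnt5a stood at 42.5 and 23.9 CPM in hair cells against 17.8 and 18.1 CPM in neurons, a difference that missed the threshold (0.85 ± 0.29, adjusted p = 0.0559). Wnt11 was at 0 in these neurons and at least 63.9-fold higher in hair cells, at a mean of 0.864 CPM. Wnt2 and Wnt9b were at 0 in hair cells, at least 4.45-fold and 6.11-fold lower than in neurons, and the Wnt2 call was lost with the plate as a block (adjusted p = 0.0509).

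Fzd6, a Frizzled of the planar polarity branch, was at 112 and 118 CPM in hair cells and gave the largest Frizzled difference (6.95 ± 0.20, adjusted p = 4.48e-05). Fzd9 was at 94.1 and 87.5 CPM in hair cells and 1.55 and 0.826 CPM in neurons (6.23 ± 0.33, adjusted p = 0.000143). Fzd4 was at 58.0 and 50.8 CPM in hair cells (4.72 ± 0.22). Fzd3 was at 181 and 217 CPM in hair cells against 60.0 and 62.0 CPM in neurons (1.66 ± 0.12, adjusted p = 0.000382). Fzd7, Fzd2 and Fzd8 were higher by 2.88 ± 0.19, 1.16 ± 0.24 and 1.10 ± 0.29. Fzd1 was the 1 Frizzled lower in hair cells, at 49.3 and 62.0 CPM against 79.8 and 92.5 CPM (-0.68 ± 0.16, adjusted p = 0.0167). Of the co-receptors Ror1 was higher by 3.57 ± 0.28, Lrp5 by 2.13 ± 0.38, Ryk by 0.91 ± 0.25 and Lrp6 by 0.35 ± 0.10. With the plate as a block, which leaves 1 residual degree of freedom, the calls of Fzd8 (adjusted p = 0.0693) and Lrp6 (0.0730) were lost.

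Sfrp1 and Dkk3 were the antagonists with the highest level per kilobase in hair cells, as given above. Dkk3 was at 395 and 267 CPM against 4.43 and 5.76 CPM in neurons (5.97 ± 0.29, adjusted p = 0.000114), and Sfrp1 at 673 and 505 CPM against 69.0 and 71.2 CPM (3.03 ± 0.18, adjusted p = 0.000184). Wif1, Sfrp2 and Frzb were higher by 5.47 ± 1.41, 3.48 ± 0.54 and 0.84 ± 0.13. Sfrp5 was lower in hair cells (-5.98 ± 0.53), at 0.426 and 0.0873 CPM (5 and 1 counts) against 15.503 and 16.3 CPM, but in the glia-poor neurons of these plates it was at 0 and 0.0297 CPM and was not tested. Sfrp4 was at 0 there, at least 18.1-fold lower. Lgr6 was at 21.1 and 30.1 CPM in hair cells (4.78 ± 0.29, adjusted p = 0.0002), Lgr5 at 145 and 125 CPM against 62.7 and 65.5 CPM (1.03 ± 0.12, adjusted p = 0.00173) and Lgr4 at 50.1 and 47.1 CPM against 66.8 and 71.0 CPM (-0.55 ± 0.11). Several calls depended on which cells were taken as hair cells. For Lgr5, with the named sub-clusters alone it was 0.25 (adjusted p = 0.425), and with a finer clustering -0.96 (adjusted p = 0.0172). The finer clustering also lost Fzd2 (0.23, adjusted p = 0.738), Ryk (adjusted p = 0.218), Lrp6 (0.190), Wif1 (0.157), Fzd8 (0.137), Rspo2 (0.133), Lgr4 (0.0687), Lgr6 (0.0559), Fzd1 (0.0544) and Wnt2 (0.0539). Fzd8 (0.185) and Lrp6 (0.205) were lost with the named sub-clusters alone, and Frzb (0.33, adjusted p = 0.0974) and Wnt2 (0.0517) without the vestibular-like cells. Rspo3 was higher (7.90 ± 0.51) and Rspo2 lower (-3.22 ± 0.86) in hair cells.

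Sub-clusters of hair cells, named from markers as inner-like (6 and 12 cells on the 2 E18.5 plates), outer-like (8 and 4) and vestibular-like (13 and 13), are described without a test, since they hold few cells. The vestibular markers did not set the last kind apart on plate 2, where they summed to 3602 CPM in outer-like and 3328 CPM in vestibular-like cells (3452 and 5068 CPM on plate 1). Rspo3 was at 32.0 and 39.4 CPM in the vestibular-like cells and at 0 in the inner-like and outer-like cells of both plates. Fzd9 was at 307 and 259 CPM in outer-like cells, 52.4 and 80.9 CPM in vestibular-like and 16.47 and 33.2 CPM in inner-like cells. Frzb was at 150 and 82.5 CPM in outer-like and 117 and 90.3 CPM in vestibular-like cells, and at 0 and 6.65 CPM in inner-like cells. Lgr6 was at 37.6 and 43.8 CPM in inner-like cells. Wnt7a was at 104 and 50.5 CPM in outer-like cells, above both other kinds on either plate (23.2 to 32.2 CPM), and Wnt7b at 82.4 and 89.4 CPM in inner-like cells, above the others (34.2 to 71.0 CPM).

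Neurons were followed over all 12 plates. Between E14.5 and E18.5, 14 of 45 tested members differed, 11 higher and 3 lower at E18.5 (23.6% of 17712 genes tested, 14% higher and 9.6% lower), and between E18.5 and P3 7 differed, 2 higher and 5 lower at P3 (25% of genes, 12.6% higher and 12.4% lower). Both comparisons share the E18.5 plates, and stage cannot be told apart from plate series for E18.5 and P3, since each of these stages was run on a plate series of its own. Glial markers in the neuron sums moved with stage, from 85.4 to 107 CPM at E14.5 and 163 CPM at E17.5 to 2226 to 2240 CPM at E18.5 and 3348 to 3730 CPM at P3. All levels were therefore also taken in the glia-poor neurons, where these markers summed to 0 at E14.5, 124 to 125 CPM at E18.5 and 311 to 585 CPM at P3. In these neurons, a smaller set of cells, the calls of Ror2 (adjusted p = 0.122), Wnt3 (0.132), Wnt11 (0.174), Wnt9b (0.262), Lrp5 (0.433), Lgr4 (0.583) and Fzd5 were lost at E18.5 against E14.5, and those of Ror2 (0.0827), Fzd1 (0.106), Wnt3 (0.381), Wnt9a (0.459) and Fzd3 at P3 against E18.5, while Sfrp5 and Rspo1 were not tested.

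Wnt3 rose and then fell in neurons. It was at 27.4 and 45.6 CPM at E14.5, 61.0 and 47.7 CPM at E15.5, 79.4, 71.9 and 54.0 CPM at E16.5, 83.3 CPM at E17.5, 74.5 and 75.0 CPM at E18.5 and 29.9 and 31.0 CPM at P3. The E18.5 plates lay above both E14.5 and both P3 plates. The log2 fold change was 1.04 ± 0.25 from E14.5 to E18.5 (adjusted p = 0.0116) and -1.02 ± 0.24 from E18.5 to P3 (adjusted p = 0.0108). The first was lost without E14.5 plate 1 (0.0644), E18.5 plate 1 (0.0599) or E18.5 plate 2 (0.0682), and was 0.36 (adjusted p = 0.253) without the E14.5 neurons of clusters led by Neurod1. The second was lost without E18.5 plate 1 (0.0524), E18.5 plate 2 (0.0506), P3 plate 1 (0.0581) or P3 plate 2 (0.0593). In the glia-poor neurons Wnt3 stood at 90.7 and 79.4 CPM at E18.5 and 30.3 and 42.3 CPM at P3, where both calls were lost.

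Wnt5a was at 3.78 and 4.73 CPM at E14.5, 30.5 and 24.4 CPM at E15.5, 36.0, 38.2 and 33.6 CPM at E16.5, 20.9 CPM at E17.5, 17.8 and 18.1 CPM at E18.5 and 9.02 and 12.1 CPM at P3. The E14.5 plates lay below all others and the E16.5 plates above all others. The rise from E14.5 to E18.5 was 2.08 ± 0.25 (adjusted p = 0.000222). It passed the threshold in every alternative run, with a highest adjusted p of 0.0496. The fall to P3 missed the threshold (-0.49 ± 0.23, adjusted p = 0.157). Wnt9a fell at P3 (-2.50 ± 0.64, adjusted p = 0.0153), from 2.71 and 4.19 CPM to 0.688 and 0.310 CPM, but not without E18.5 plate 2 (0.0989) or P3 plate 2 (0.104).

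Fzd1 also rose and then fell. It was at 23.8 and 23.9 CPM at E14.5, 82.6 and 51.5 CPM at E15.5, 85.5, 103 and 76.2 CPM at E16.5, 106 CPM at E17.5, 79.8 and 92.5 CPM at E18.5 and 31.3 and 22.2 CPM at P3. Every plate from E15.5 to E18.5 lay above every E14.5 and P3 plate. The log2 fold changes were 1.85 ± 0.26 from E14.5 to E18.5 (adjusted p = 0.000539) and -1.41 ± 0.25 from E18.5 to P3 (adjusted p = 0.00207). In the glia-poor neurons Fzd1 stood at 21.6 and 33.9, 94.4 and 82.0, and 27.1 and 28.4 CPM at these 3 stages, and the call at P3 was lost.

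Fzd3 declined before birth, from 115 and 106 CPM at E14.5 to 60.0 and 62.0 CPM at E18.5, with the 2 stages apart (-0.86 ± 0.11, adjusted p = 0.000414). It was called higher at P3 (67.7 and 68.1 CPM, 0.43 ± 0.11, adjusted p = 0.0179), but this call was lost without P3 plate 1 (0.0772), P3 plate 2 (0.0666), E18.5 plate 1 (0.148) or E18.5 plate 2 (0.0916). In the glia-poor neurons the direction turned: Fzd3 stood at 34.9 and 37.4 CPM at E18.5 and 22.2 and 9.10 CPM at P3, with a log2 fold change of -0.96 (adjusted p = 0.1397). Glia, as given above, held more Fzd3 than neurons, and the part of glial counts in this call was not tested.

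Of the co-receptors, Lrp6 fell from 47.9 and 46.9 CPM at E18.5 to 25.3 and 19.4 CPM at P3 without overlap (-0.81 ± 0.21, adjusted p = 0.0178). The call was lost without P3 plate 2 (0.127), E18.5 plate 1 (0.0817) or E18.5 plate 2 (0.0688). Ror2 was at 51.3 and 20.4 CPM at E14.5, 16.9 and 12.5 CPM at E15.5, 6.98 and 8.01 CPM at E18.5 and 0.668 and 0.543 CPM at P3. The log2 fold changes were -2.26 ± 0.42 from E14.5 to E18.5 (adjusted p = 0.00303) and -3.35 ± 0.44 from E18.5 to P3 (adjusted p = 0.000380). The fall before birth rested on the E14.5 neurons of 2 clusters led by Neurod1, 69 of 130 E14.5 neurons. Without them the log2 fold change of Ror2 was 0.99 (adjusted p = 0.396). Lrp5 was called higher at E18.5 than at E14.5 (4.35 ± 1.20), a call lost without E14.5 plate 2 (0.0660), E18.5 plate 1 (0.0957) or E18.5 plate 2 (0.0857).

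The E14.5 neurons were heterogeneous in several members. In the largest neuronal cluster (61 cells) Wnt3 was at 52.2 and 65.4 CPM on the 2 plates, against 20.4 and 20.7 CPM and 3.56 and 18.9 CPM in the Neurod1-led clusters (40 and 29 cells). Sfrp1 was at 146 and 267 CPM in the first and at no more than 44.0 CPM in the others, and Lgr5 at 23.4 and 13.8 CPM against at most 0.318 CPM. Ror2 had the opposite order, at 7.03 and 0.672 CPM in the first, 52.1 and 22.5 CPM in the second and 110 and 87.3 CPM in the last. These clusters were defined on other genes and are described without a test.

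Sfrp1 in neurons was highest on E16.5 plates 1 and 2 and lowest at P3. It was at 57.9 and 164 CPM at E14.5, 264 and 214 CPM at E15.5, 354, 377 and 194 CPM at E16.5, 163 CPM at E17.5, 69.0 and 71.2 CPM at E18.5 and 30.6 and 20.8 CPM at P3. The P3 plates lay below all others, but neither the comparison of E18.5 with E14.5 (-0.66 ± 0.42, adjusted p = 0.295) nor that of P3 with E18.5 (-1.17 ± 0.42, adjusted p = 0.0690) passed the threshold. Frzb went from 8.42 and 8.46 CPM at E14.5 through 36.9 and 35.2 CPM at E18.5 to 74.2 and 95.5 CPM at P3. The rise to E18.5 was called (2.09 ± 0.54, adjusted p = 0.0166) but was lost without E14.5 plate 1 (0.0730), E14.5 plate 2 (0.0692), E18.5 plate 1 (0.0650) or E18.5 plate 2 (0.0623) or the E14.5 neurons of clusters led by Neurod1 (1.13, adjusted p = 0.180), and that to P3 was not (1.51 ± 0.51, adjusted p = 0.0518). Sfrp5, at 0 in E14.5 neurons, was at 15.503 and 16.3 CPM at E18.5, at least 177-fold higher (adjusted p = 0.00461). In the glia-poor neurons it was at 0 and 0.0297 CPM at E18.5 and at 0 on both P3 plates, too few counts to be tested.

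Lgr5 and Lgr4 were higher in older neurons. Lgr5 was at 8.70 and 7.76 CPM at E14.5, 25.2 and 8.42 CPM at E15.5, 28.9, 21.3 and 23.6 CPM at E16.5, 43.3 CPM at E17.5, 62.7 and 65.5 CPM at E18.5 and 48.9 and 78.4 CPM at P3. The E18.5 and P3 plates lay above all earlier ones. The log2 fold change from E14.5 to E18.5 was 2.96 ± 0.44 (adjusted p = 0.000775), and in the glia-poor neurons Lgr5 stood at 1.71 and 0 CPM at E14.5 and 33.6 and 38.6 CPM at E18.5. Lgr4 rose from 26.5 and 30.3 CPM to 66.8 and 71.0 CPM (1.28 ± 0.25, adjusted p = 0.00361). In the glia-poor neurons the E14.5 plates stood at 54.0 and 51.3 CPM, the E18.5 plates at 68.6 and 65.3 CPM, and the log2 fold change was 0.43 (adjusted p = 0.583).

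The other members called between these stages were low. Fzd5 was higher at E18.5 than at E14.5 (4.30 ± 1.05), a call lost without E14.5 plate 1 (0.0522), E18.5 plate 1 (0.0622) or E18.5 plate 2 (0.0552). Wnt9b and Rspo1 were at 0 at E14.5 and at least 8.77-fold and 5.96-fold higher at E18.5. The Wnt9b call was lost without E18.5 plate 1 (0.0634) or E18.5 plate 2 (0.0865), and that of Rspo1 without any of 8 plates, with adjusted p values from 0.0568 to 0.130. Wnt11 was at 0 at E18.5 and at least 125-fold lower than at E14.5, which was lost without E14.5 plate 1 (0.0603), E18.5 plate 1 (0.1404) or E18.5 plate 2 (0.156). Over the 6 plates from E14.5 to E17.5 its neuronal counts came from 3 of 438 cells. Rspo1 rose at P3 (3.87 ± 1.17, adjusted p = 0.0402), to 5.99 and 7.04 CPM, and lost the call without any of 6 plates (0.0620 to 0.245). Rspo2 was at 7.26 to 12.3 CPM on all plates up to E18.5 and at 4.35 and 5.15 CPM at P3, below all the others, without passing the threshold (-0.89 ± 0.36, adjusted p = 0.103).

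**Figure D3:**
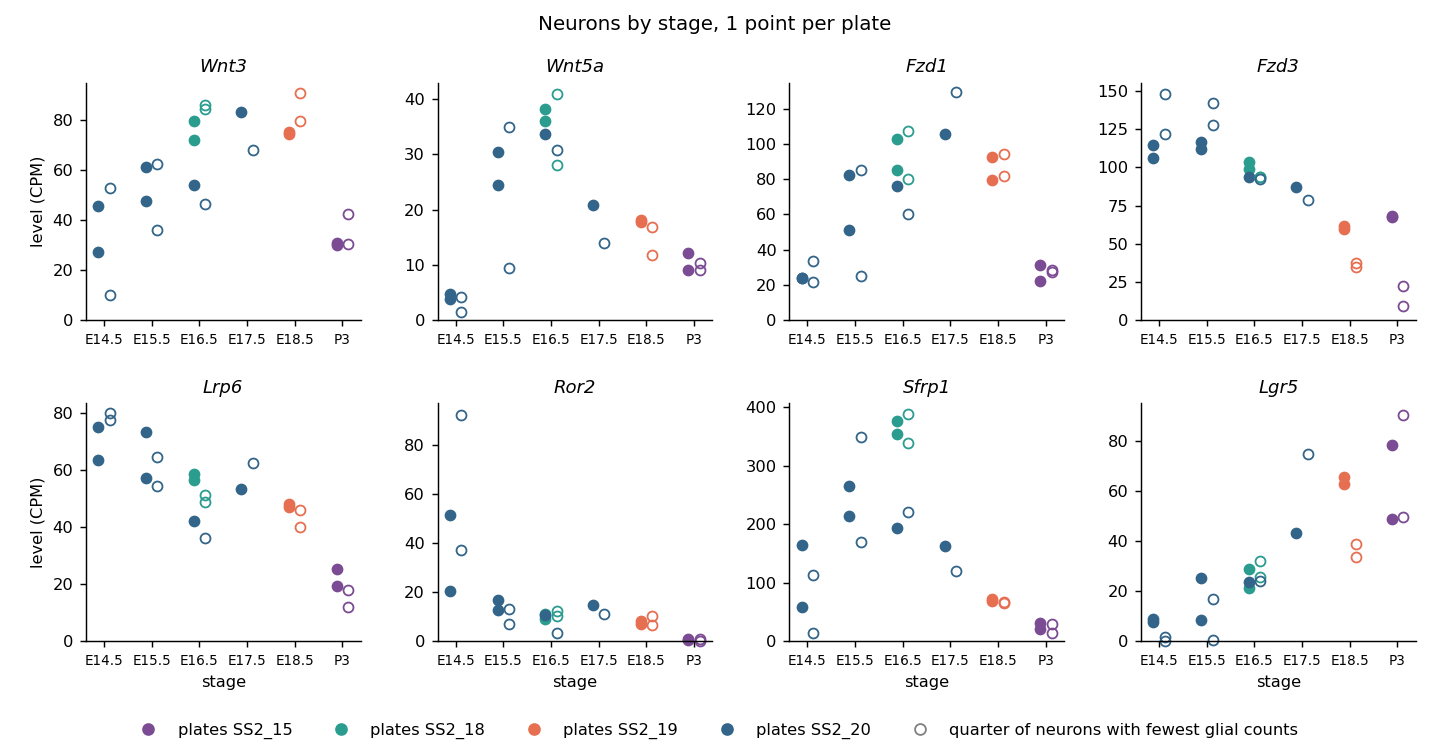
Level in CPM of Wnt3, Wnt5a, Fzd1, Fzd3, Lrp6, Ror2, Sfrp1 and Lgr5 in neurons of each of the 12 plates against developmental stage. Filled points are all neurons, open points the glia-poor neurons, and colours mark the plate series; Wnt3 and Fzd1 are lowest at E14.5 and P3, and the open points of Fzd3 fall below the filled ones at E18.5 and P3.

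In the wider lists, 10 of 19 genes of the planar polarity branch were lower and 2 higher at E18.5 than at E14.5, and 7 did not pass (9.6% of all genes lower and 14% higher). At P3 against E18.5, 9 were lower and none higher, and 10 did not pass (12.4% of all genes lower and 12.6% higher). Ptk7, a co-receptor of that branch, went from 137 and 136 CPM at E14.5 to 52.7 and 50.2 CPM at E18.5 and 5.83 and 6.32 CPM at P3 (-2.81 ± 0.27 for P3 against E18.5, adjusted p = 6.1e-05). Vangl2 fell by 1.71 ± 0.25 and Scrib by 1.66 ± 0.17 on the log2 scale over the same step. Tle1, a co-repressor that binds TCF factors, was at 132.7 and 96.2 CPM at E14.5 and 6.29 CPM on both E18.5 plates (-4.19 ± 0.30, adjusted p = 8.82e-06). Wls, which escorts Wnts to the cell surface, was higher at E18.5 (3.57 ± 0.85, adjusted p = 0.0115), at 60.9 and 63.7 CPM. Wls was at 202 to 240 CPM in glia of the 6 plates. Larger rises to E18.5 were called for Apcdd1 (at 0 at E14.5, at least 24.1-fold higher), Sostdc1 (9.59 ± 1.94) and Daam2 (4.59 ± 1.40). Each of these was also higher in glia than in neurons of the 6 plates (5.43 ± 1.02, 9.39 ± 1.16 and 7.49 ± 0.54). The part of glial counts in these differences was not tested.

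Change per day from E14.5 to E17.5 was fitted on the 6 plates in each class. In neurons 3 of 33 tested members changed (5.07% of all genes, 2.67% upward and 2.4% downward), each upward: Fzd1 by 0.69 ± 0.15, Lgr5 by 0.77 ± 0.18 and Lgr4 by 0.44 ± 0.10 log2 units a day (adjusted p = 0.0384, 0.0484 and 0.0437). None of the 3 calls held without the E14.5 neurons of clusters led by Neurod1 (adjusted p = 0.0703, 0.404 and 0.129 for Fzd1, Lgr5 and Lgr4) or without E14.5 plate 1 (adjusted p = 0.119, 0.119 and 0.125), E14.5 plate 2 (0.139, 0.147 and 0.119), E16.5 plate 3 (0.08004, 0.0932 and 0.0770) or the E17.5 plate (0.128, 0.329 and 0.340). That of Fzd1 was also lost without E15.5 plate 2 (0.0692) and that of Lgr4 without E15.5 plate 1 (0.0546). In glia none of 41 and in mesenchyme none of 40 tested members passed in edgeR, with 6 and 9 at an unadjusted p under 0.05 (1.08% of all genes passed in glia, 0.636% upward and 0.448% downward, and 0.014% in mesenchyme, 0.014% upward and 0% downward), and DESeq2 called 5 and 7.

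The daily change itself differed between mesenchyme and neurons for 2 of 47 tested members (0.773% of all genes, 0.425% higher and 0.348% lower). Sfrp1 in mesenchyme was at 141 and 194 CPM at E14.5, 127 and 75.0 CPM at E15.5, 38.3 CPM on E16.5 plate 3 and 8.34 CPM at E17.5, so that the later plates lay below the earlier ones. Macrophage markers summed to 853 CPM in the E17.5 mesenchyme and to no more than 0.687 CPM on the other 5 plates, and their part was not tested. Neurons of the same plates were at 57.9 and 164, 264 and 214, 194 and 163 CPM, and glia at 308 and 385, 243 and 258, 143.5 and 173 CPM. The difference in slope, mesenchyme minus neurons, was -1.59 ± 0.24 log2 units a day (adjusted p = 0.0150), which was lost without E14.5 plate 1 (0.0581), E14.5 plate 2 (0.0893) or the E17.5 plate (0.0776). For Fzd1 mesenchyme went from 125 and 136 CPM through 112 and 107 CPM and 119 CPM to 78.3 CPM, while neurons rose from 23.8 and 23.9 CPM to 106 CPM. The Fzd1 difference was -0.91 ± 0.15 (adjusted p = 0.0207), lost without E14.5 plate 1 (0.148), E14.5 plate 2 (0.108) or the E17.5 plate (0.181). Between glia and neurons none of 47 members passed in edgeR (6 at an unadjusted p under 0.05, 0.449% of all genes called, 0.348% higher and 0.1% lower), and DESeq2 called 3.

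**Figure D4:**
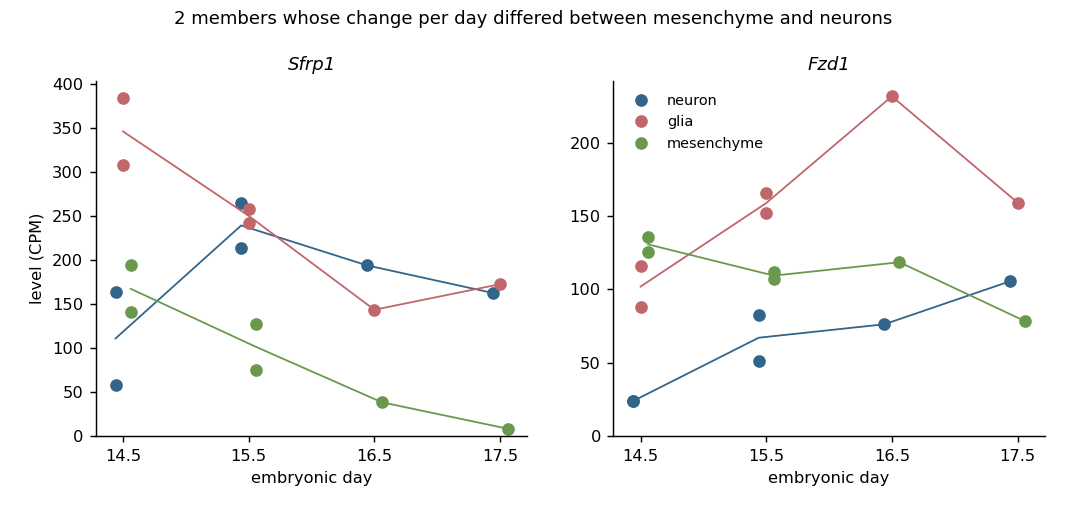
Level in CPM of Sfrp1 and Fzd1 against embryonic day in neurons, glia and mesenchyme of the 6 plates from E14.5 to E17.5, with 1 point a plate and lines through the daily means. Sfrp1 in mesenchyme falls from 141 and 194 CPM to 8.34 CPM, and Fzd1 in neurons rises from 23.8 and 23.9 CPM to 106 CPM.

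Type II-like neurons, which contact outer hair cells, were compared with type I-like neurons, which contact inner hair cells. The fit used the 2 E18.5 plates and P3 plate 1 (25, 19 and 18 against 272, 283 and 309 cells). Sub-clusters with a type II marker score of at least 1 were type II-like. Others were type I-like where at least 3 type I markers reached 2 CPM, unless type II markers prevailed among the leading genes. No type I score was required. At E18.5 and P3 some type I-like sub-clusters scored higher on type II than on type I markers. Type II markers summed to 2787, 2727 and 3144 CPM in type II-like neurons of these plates. In type I-like neurons they summed to 1280, 1206 and 487 CPM. Of 37 tested members 3 differed, all higher in type II (3.59% of genes, 1.6% higher and 1.99% lower). On these 3 plates mesenchymal markers summed to 1388, 758 and 296 CPM in type II and 530, 494 and 257 CPM in type I neurons, and glial markers to 3976, 2909 and 3247 CPM against 2054, 2190 and 3507 CPM, and their part was not tested. Wnt5a was at 106, 120 and 86.5 CPM in type II and 9.15, 10.4 and 4.59 CPM in type I neurons of the same plates, far apart on each (3.67 ± 0.18, adjusted p = 0.00113). On P3 plate 2, which had 4 type II cells and was left out of the fit, Wnt5a was at 52.8 and 10.98 CPM. The Wnt5a call held in all 11 alternatives run. Wnt5b was at 5.31, 2.31 and 7.77 CPM against 0.226, 0.125 and 0.2997 CPM (4.38 ± 0.65, adjusted p = 0.0244, and 0.158 or 0.124 without E18.5 plate 1 or 2). Sfrp1 was at 136, 135 and 67.0 CPM against 62.3, 66.4 and 30.03 CPM (1.00 ± 0.12, adjusted p = 0.0145, and 0.0892 or 0.105 without E18.5 plate 1 or 2). On P3 plate 2 neither was higher in type II cells, where Wnt5b was at 0 and Sfrp1 at 7.84 CPM against 22.2 CPM. Wnt3 was at 77.3, 89.0 and 37.3 CPM in type II and 74.2, 73.9 and 29.0 CPM in type I neurons (0.13 ± 0.13, adjusted p = 0.643). Of the wider lists, Cthrc1 (3.05 ± 0.15), a secreted cofactor of Wnt5a signalling, and Prickle2 and Prickle1 of the planar polarity branch (2.23 ± 0.33 and 1.44 ± 0.26) were also higher in type II neurons, whereas Dact2, of the same branch, and Tnfrsf19, a feedback target, were lower (-3.03 ± 0.48 and -2.39 ± 0.38).

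Mesenchyme and glia were not uniform at E14.5. These clusters were formed on other genes and are described without a test. Of 6 mesenchymal clusters, 2 carried most of the Fzd9 and Dkk3, a cluster led by Tgfbi and Penk (53 cells) and one led by the cartilage genes Col2a1 and Matn1 (38 cells). Fzd9 was at 489 and 403 CPM in the first and 514 and 399 CPM in the second on plates 1 and 2, against 9.28 to 73.1 CPM in the other 4. Dkk3 was at 698 and 434 CPM and 540 and 479 CPM, against 18.4 to 164 CPM in the other 4.

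Sfrp2 was shared between the Tgfbi and Penk cluster (1512 and 1808 CPM) and a cluster led by Col1a1 and Crabp1 (48 cells, 1230 and 812 CPM), with 157 to 416 CPM in the others. Rspo3 had the same pair of clusters in front, at 125 and 116 CPM and 67.3 and 40.1 CPM, and Sfrp1 was at 482 and 438 CPM and 341 and 494 CPM in them. Ror2 was lowest in the Tgfbi and Penk cluster (23.0 and 28.7 CPM) and highest in a cluster led by Apod and Tbx18 (50 cells, 246 and 190 CPM). Wif1 was at 165 and 150 CPM in the Tgfbi and Penk cluster.

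**Figure D5:**
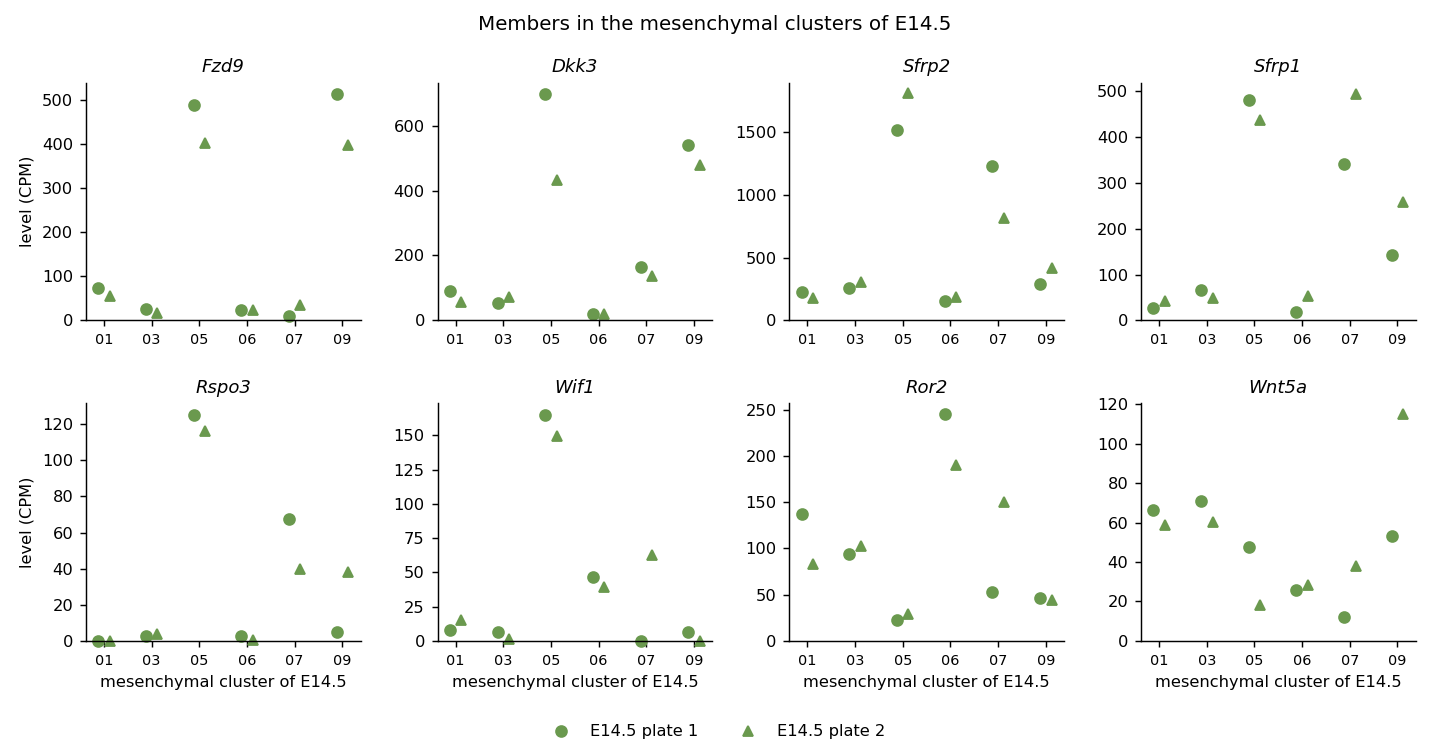
Level in CPM of Fzd9, Dkk3, Sfrp2, Sfrp1, Rspo3, Wif1, Ror2 and Wnt5a in the 6 mesenchymal clusters of E14.5, with 1 point for each of the 2 plates. Fzd9 and Dkk3 stand high in the clusters led by Tgfbi and by Col2a1, and Ror2 in the one led by Apod and Tbx18.

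Among E14.5 glia, a cluster led by Col20a1 and Spon1 (121 cells) and one led by Npy and Akr1b8 (90 cells) had different levels of several antagonists. Sfrp5 was at 74.8 and 199 CPM in the first and 34.0 and 34.1 CPM in the second, and Sfrp1 at 437 and 523 CPM against 182 and 174 CPM. Frzb was at 43.8 and 32.5 CPM in the first and 0.0735 and 0 CPM in the second. Ror2 had the opposite order, at 0 and 3.07 CPM against 25.2 and 12.4 CPM.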

How the data were processed

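Smart-seq2 counts of 12 plates, 1 sample each, were analysed. Per the labels, reads were aligned to mm10 with STAR and processed with Scanpy; the methods name uniquely mapped reads counted with featureCounts, and annotation and strand are not given in the sources used here. The authors deposited whole-number read counts per gene and well, without molecular identifiers. Of 4992 wells, 384 of 1 plate without a sample were not used. Wells with over 1000 genes and under 5% of ERCC spike-in counts were kept, and no well name was shared between plates (0). Per stage, cells were clustered (Scanpy 1.11.5, Leiden resolution 1, 2000 variable genes, without the members and pathway genes) and clusters named from markers. The naming thresholds were set after marker levels were seen, no doublet caller was run, and clusters with markers of another class at over 0.7 of their own score stayed unnamed, hair cells excepted.

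Counts were summed by plate and class (at least 5 cells, 3 for hair cells) and tested in edgeR 4.0.16 (R 4.3.3; TMM, filterByExpr, quasi-likelihood test, Benjamini-Hochberg adjustment over all genes, threshold 0.05). The plate was a block between glia, mesenchyme and neurons and between neuron types, where the sums of a plate come from the same animals. The SE is the absolute log2 fold change over the root of the F value. Plates are the replicates, which pool animals, so p-values measure the spread between plates. A floor is 3 counts over a group and covers counting error only. The fits were tested on simulated counts. The hair cell and neuron type fits, on few sums, were slightly liberal there.

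Alternatives were DESeq2 1.42.0, other scaling, no filter, other cell filters and clusterings, cells with fewest glial counts, and leaving out each plate; those without the E14.5 clusters led by Neurod1 or with named hair cells alone were added after seeing the data. Members at a mean of at least 5 CPM in a class, and others where called, are named; of the pathway lists, up to 6 genes a comparison with the largest change. The members and lists were chosen with earlier results of these data known. Promoters and exon lengths come from RefSeq (GRCm38.p6) and GENCODE vM21. Values come from plate sums, and no share of cells is compared.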

Additional observations from a re-analysis of the deposited data

Results flagged for a closer look

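The change per day from E14.5 to E17.5 differed between mesenchyme and neurons for 2 members in a test of the difference itself (edgeR, plate sums of 6 plates). For Sfrp1 the slope in mesenchyme minus that in neurons was -1.59 log2 units a day (adjusted p = 0.0150), with slopes of -1.33 ± 0.20 in mesenchyme and 0.18 ± 0.22 in neurons fitted alone. For Fzd1 it was -0.909 (adjusted p = 0.0207), with -0.18 ± 0.08 in mesenchyme and 0.69 ± 0.15 in neurons. In glia the slopes were -0.38 ± 0.08 for Sfrp1 and 0.31 ± 0.11 for Fzd1. Each day from E16.5 on rests on 1 plate, and both differences missed the threshold without E14.5 plate 1 or plate 2 or the E17.5 plate, as given above.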

How the results depend on the processing

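Of 134 member calls, 74 were called under every alternative run. These were 18 of 25 (glia against neurons), 23 of 31 (mesenchyme against neurons), 13 of 19 (mesenchyme against glia), 15 of 30 (hair cells), 4 of 14 (E18.5 against E14.5), 0 of 7 (P3 against E18.5), 0 of 3 (change per day in neurons), 0 of 2 (its difference from mesenchyme) and 1 of 3 (neuron types, Wnt5a). A member too low to be tested under an alternative counts as not called there, which concerns Sfrp5, Rspo3 and Wnt11 in hair cells and Sfrp5 and Rspo1 between stages of neurons. A direction reversed for Lgr5 in hair cells with a Leiden resolution of 2 (-0.96), for Ror2 at E18.5 against E14.5 without the Neurod1-led clusters (0.99) and for Fzd3 at P3 against E18.5 in the glia-poor neurons (-0.96). In those neurons Fzd5 was at 0 on all E14.5 and E18.5 plates.

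Counts of called members moved by over 1.5 times as follows. With the glia-poor neurons they were 7 for E18.5 against E14.5 (from 14), 1 for P3 against E18.5 (from 7), 0 for the change per day in neurons (from 3), 1 for the glial difference from it (from 0) and 1 for the mesenchymal difference (from 2). DESeq2 called 7 members for the change per day in neurons, 5 in glia, 7 in mesenchyme, 3 and 5 for the differences of glia and mesenchyme from neurons, and 10 for neuron types (from 3). Without the Neurod1-led clusters the counts were 0 for the change per day in neurons and 1 for the mesenchymal difference. Without a filter on low counts, 3 members were called for the change per day in glia and 1 in mesenchyme. A single member was called for the change per day in glia (from 0) with the genes of a glial code among the features, with a Leiden resolution of 2 and without the 5% of cells with most counts, and 1 for the glial difference (from 0) with the first and last of these and without the 25% of neurons with most glial counts. The causes were not tested. Leaving out a plate gave 23 to 26 calls (glia against neurons), 28 to 30 (mesenchyme against neurons), 17 to 20 (mesenchyme against glia), 7 to 17 (E18.5 against E14.5), 2 to 9 (P3 against E18.5), 0 to 3 (change per day in neurons), 0 in glia and in mesenchyme, 0 to 2 and 0 to 4 (differences of glia and mesenchyme) and 1 to 10 (neuron types).

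Pairing by plate: without the replicate block, 26, 30 and 22 members were called in the 3 class comparisons and 1 (Wnt5a) between neuron types, and with the block 28 rather than 30 in hair cells. The sums of a plate come from the same animals. Without it the calls of Fzd10 and Sfrp1 (mesenchyme against glia), Lgr6 (mesenchyme against neurons), and Wnt5b and Sfrp1 (neuron types) were lost. With it those of Fzd8, Lrp6 and Wnt2 in hair cells were lost.

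Depth and design limit these results. Class sums hold from 1018900 counts upward, levels under about 1 CPM rest on few reads of few cells, E17.5 has 1 plate, hair cells come from 2 plates, and stage and plate series cannot be told apart at E18.5 and P3.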
